A study of Mus musculus with 42 samples.

Results

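Described here are transcripts of 53 cell cycle genes, by RNA sequencing of knee joint soft tissue and lymph nodes in a mouse knee arthroplasty study. They were chosen by symbol as textbook genes of DNA replication and of mitosis, and all 53 were found among the 36604 genes listed for joint soft tissue and the 54752 listed for nodes. All 53 also passed the filter on low counts in both tissues. They were sorted by role into 23 genes of S phase, 27 of mitosis, and 3 that serve both and stand in neither set (Ccna2, Mki67 and Top2a).

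All animals were wild type C57BL/6 mice, with no sex or age in the labels used here. Joint soft tissue was sampled as RST on days 3, 7, 14, 21 and 35 and as LST on day 35 alone, with 4 libraries in each of these 6 groups. What RST and LST stand for is not given in the labels. Nothing says that the 4 joint samples of a group came from separate animals, so p-values for the joint cover only the scatter of these samples, part of which may be technical. Nodes were sampled on days 7 and 14 as Implant, ContraImplant and NoImplant, with 3 libraries in each of 6 groups. Implant and ContraImplant nodes of a day carry the same 3 mouse numbers and opposite side letters (R and L), and NoImplant nodes came from other mice. Count headers mark Implant nodes as Surgery, and both ContraImplant and NoImplant nodes as NoSurgery. Implant and surgery thus cannot be told apart between Implant and NoImplant nodes. Because LST was taken on day 35 only, the label and the day differ at once whenever LST is set beside an earlier RST day.

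A cell that is about to copy its DNA makes the replication machinery first. Origins are licensed by Cdc6, Cdt1 and the Mcm helicase, cyclin E with Cdk2 starts synthesis, Pcna clamps the polymerases to DNA, and ribonucleotide reductase with thymidine enzymes supplies the building blocks. Later the cell makes cyclin B, Cdk1 and the Aurora and Polo kinases, builds kinetochores and a spindle, and ends division through Cdc20, Ube2c and the cytokinesis motors. In repairing musculoskeletal tissue such transcripts are known from dividing macrophages, fibroblasts, chondrocytes and muscle precursors, and in lymph nodes from activated and germinal centre lymphocytes. In bulk RNA, fewer cycling cells and less of the RNA in each cycling cell cannot be told apart.

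Both sets are known to be switched by elements near the gene start, so RefSeq promoter windows on GRCm38.p6, from 250 bases before to 50 bases after the start, were searched on both strands. The motifs were the cell cycle homology region (CHR) TTTGAA, the CCAAT box CCAAT, and 4 spellings of the E2F motif (TTTCCCGC, TTTGGCGC, TTTCGCGC, TTTGCCGC). Of the 53 members, 44 had a window, and 9 (Aurkb, Ccna2, Ccne2, Cdc25c, Foxm1, Gmnn, Kif20a, Mcm4 and Tpx2) did not. A window with CHR belonged to 14 of 22 mitosis members (63.6%) and 3 of 20 S phase members (15%), against 18.1% of all 27025 genes with a window and 12.2% of the 11752 of these that were tested in the joint. An E2F spelling stood in 7 of 20 S phase members (35.0%), in 1 of 22 mitosis members (Cdk1, 4.5%), in 2.3% of all genes and in 3.8% of those tested in the joint. CCAAT stood in 13 of 20 S phase and 16 of 22 mitosis windows, against 37.9% of all genes. CHR and CCAAT stood together in 12 of 22 mitosis windows, 3 of 20 S phase windows and 7.1% of all windows. Of the 14 mitosis members with CHR, 13 had it within 40 bases of the start, a distance chosen after the positions were seen, against 23.2% of all genes with CHR. Of the 3 S phase members with CHR, 2 had it within that distance. A match is a description of letters, not a site in use or a cause, and no match says only that these letters are not in the window.

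**Figure D1:**
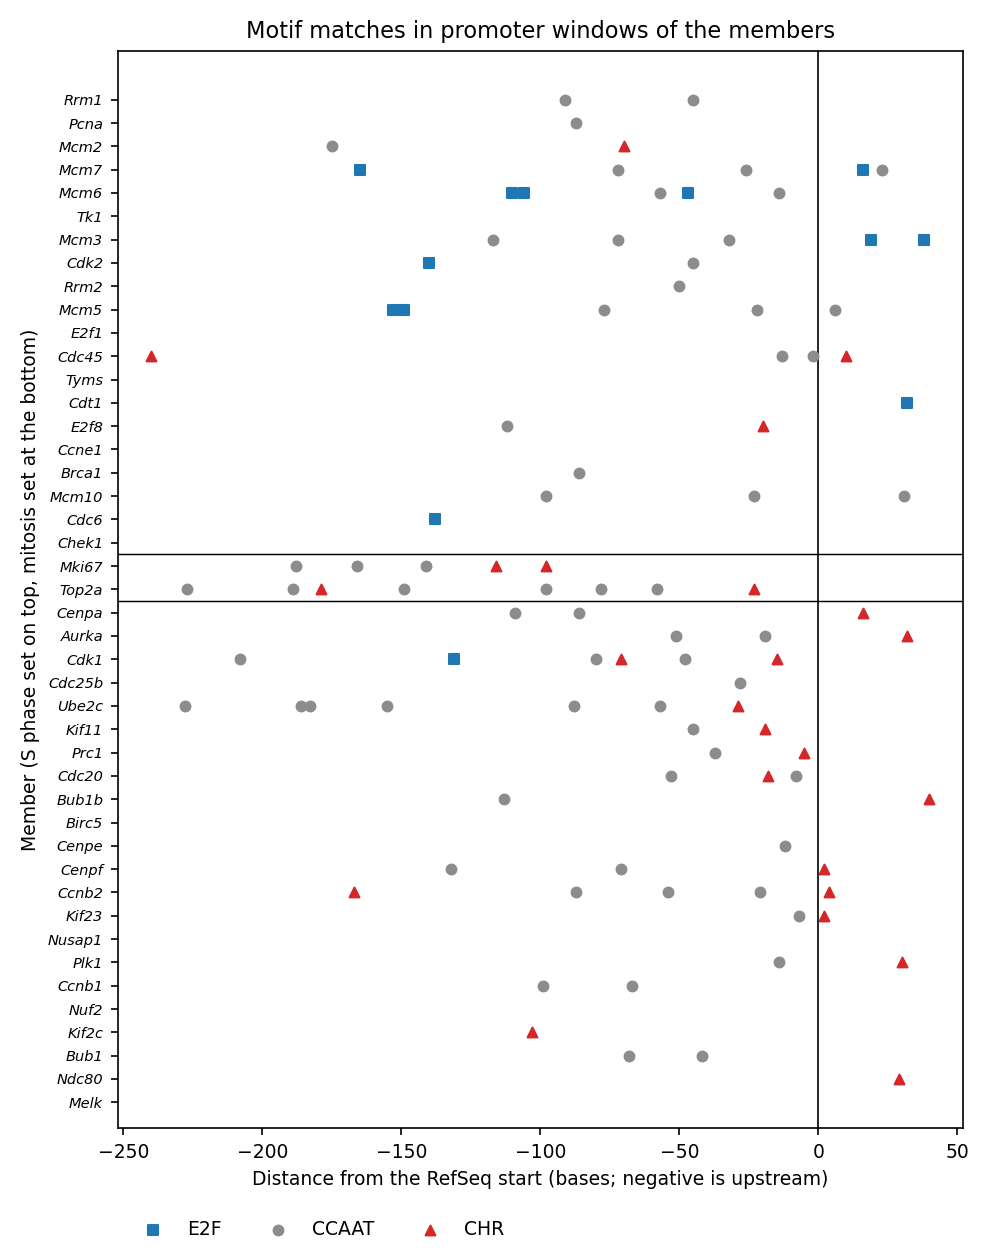
Position of each motif match (horizontal axis, bases from the RefSeq start, negative before it) in the window of each of the 44 members with one (rows), by motif. CHR triangles gather around the start in the mitosis rows, 13 of 14 within 40 bases, as in 2 of the 3 S phase rows with CHR. E2F squares lie in 7 S phase rows and in 1 mitosis row, Cdk1.

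To show the layouts, 4 windows are given 5′ to 3′ on the gene's own strand, from 250 bases before the start to 30 after it, in lower case with every motif match of either strand in capitals. Mcm7, a subunit of the replicative helicase, lies on the minus strand at chr5:138171854-138172133 and has E2F matches 165 bases before (other strand) and 16 bases after the start. Its second E2F match shares bases with a CCAAT match, and it has no CHR. Cenpa, the histone of centromeres, lies on the plus strand at chr5:30666636-30666915 and has CHR 16 bases after the start and CCAAT on the other strand 109 and 86 bases before it. Tk1, thymidine kinase, lies on the minus strand at chr11:117825985-117826264 and has none of the 3. Ube2c, which passes ubiquitin to mitotic cyclins, lies on the plus strand at chr2:164769679-164769958, has 1 CHR and 6 CCAAT matches, and was added after its values were seen.
Mcm7: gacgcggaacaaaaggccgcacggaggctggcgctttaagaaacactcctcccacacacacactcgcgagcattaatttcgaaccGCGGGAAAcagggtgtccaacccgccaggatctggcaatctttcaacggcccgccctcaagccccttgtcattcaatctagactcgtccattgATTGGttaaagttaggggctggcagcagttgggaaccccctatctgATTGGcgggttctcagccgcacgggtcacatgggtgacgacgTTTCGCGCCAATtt
Cenpa: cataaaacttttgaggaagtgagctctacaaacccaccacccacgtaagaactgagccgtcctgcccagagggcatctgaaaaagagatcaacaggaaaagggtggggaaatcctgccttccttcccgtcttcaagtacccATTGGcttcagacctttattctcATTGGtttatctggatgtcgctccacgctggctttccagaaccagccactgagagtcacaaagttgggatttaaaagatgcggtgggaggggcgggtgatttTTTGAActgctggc
Tk1: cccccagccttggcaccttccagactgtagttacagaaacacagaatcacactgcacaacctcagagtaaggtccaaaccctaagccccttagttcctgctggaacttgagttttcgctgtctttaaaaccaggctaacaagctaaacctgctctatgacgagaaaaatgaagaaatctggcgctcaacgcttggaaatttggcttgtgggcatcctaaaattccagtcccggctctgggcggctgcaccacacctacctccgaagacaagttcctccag
Ube2c: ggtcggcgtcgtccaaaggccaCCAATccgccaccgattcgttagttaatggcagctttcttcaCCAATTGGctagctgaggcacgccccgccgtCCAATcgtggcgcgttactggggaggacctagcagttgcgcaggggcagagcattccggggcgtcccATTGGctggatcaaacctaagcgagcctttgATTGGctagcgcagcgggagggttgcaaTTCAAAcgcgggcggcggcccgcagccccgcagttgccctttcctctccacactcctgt

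Depth was 17842090 to 28024003 counts per joint library and 22041900 to 44371001 per node library. Levels are given as CPM (counts scaled to library size, here with TMM factors), and set levels as mean log2 CPM. In the joint, the libraries of days 14 and 21 were the most spread: member means ran from 1.80 to 2.77 on day 14 and from 0.87 to 2.25 on day 21, against 3.32 to 3.49 on day 7. RST day 21 replicate 2 stood highest of its group, also in summed fibroblast markers (12914 CPM, others 3498 to 6803) and macrophage markers (861 CPM, others 275 to 561). In nodes, ContraImplant day 7 replicate 3 stood apart in the members, with a mean of 5.01 against 3.79 and 3.92. It was also the deepest, with 44371001 counts against 27255758 and 23709158. That library also had the highest summed germinal centre B cell (268 CPM), plasma cell (1924 CPM) and mature muscle (700 CPM) markers of its group. Over all genes, replicate 2 of that group (mouse 8) differed most. Its chi-square per degree of freedom was 151 against replicate 1 and 176 against replicate 3, where replicates 1 and 3 gave 40.3. Counts and medians that RST day 21 replicate 2 or ContraImplant day 7 replicate 3 change are given with and without them.

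On RST day 3, 52 of 53 members were higher than in LST, and none was lower. Over all genes tested 68.7% passed in this comparison, and 38.6% of all genes tested passed as higher. A gene passed where edgeR's Benjamini-Hochberg adjusted p over all genes of the table was below 0.05. The median log2 fold change of the members was 3.67, beside 0.09 over all genes, and 42 members exceeded 2 on the log2 scale. The lowest RST day 3 library lay above the highest LST library in 52 members, as in 35.4% of all genes. The member without a call was Ccne2, one of the 2 cyclins E, with 8.90 ± 1.5 CPM on RST day 3 and 7.84 ± 0.95 CPM in LST (SD, n = 4). Its log2 fold change of 0.18 had an SE of 0.15 and an edgeR adjusted p of 0.28, and values after ± on a log2 fold change are SEs throughout. The mean log2 CPM of all members was 3.76 ± 0.24 on RST day 3 and 0.38 ± 0.27 in LST (SD, n = 4).

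**Figure D2:**
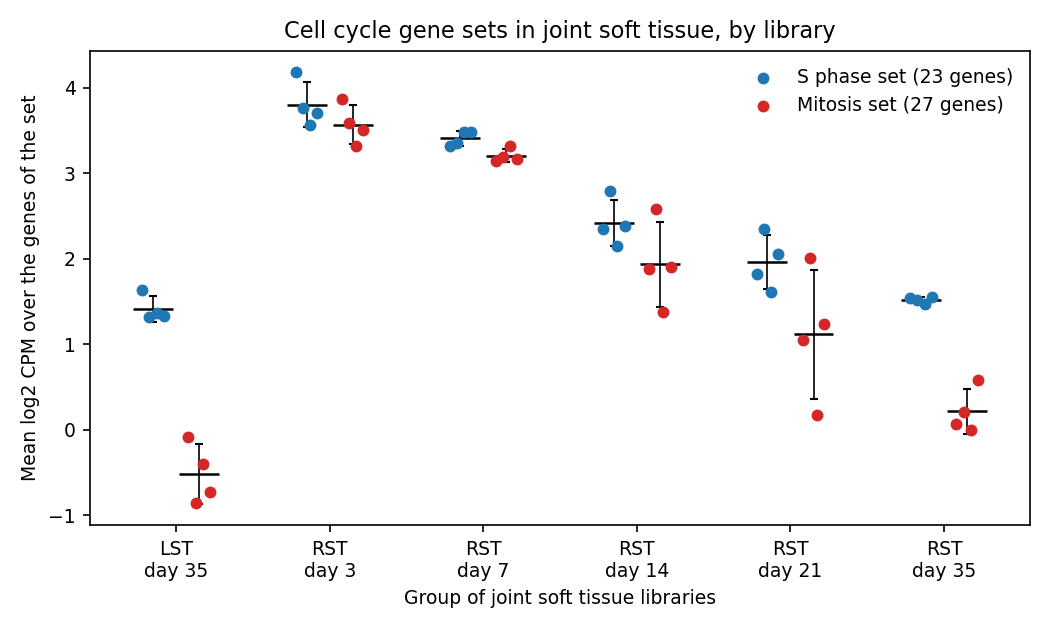
Mean log2 CPM of the S phase and mitosis members in each joint library (points), with group means (lines) and SDs (whiskers, n = 4). Mitosis members fall from 3.57 on RST day 3 to 0.22 on RST day 35, with LST at -0.52, and S phase members from 3.80 to 1.52, with LST at 1.41.

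Licensing and fork genes were higher on RST day 3 in 12 of 12, with a median log2 fold change of 2.22. Pcna, the sliding clamp, was at 70.4, 51.1, 42.4 and 46.1 CPM in the RST day 3 libraries and at 22.5, 22.3, 19.98 and 21.03 CPM in LST. Every RST day 3 library lay above every LST library, by 1.29 ± 0.12 on the log2 scale (edgeR adjusted p = 4.66e-09). Mcm2, a helicase subunit, was at 32.3, 24.2, 21.2 and 24.2 CPM and in LST at 14.2, 15.8, 14.5 and 14.8 CPM. It had the smallest change of the class, 0.78 ± 0.10 (adjusted p = 2.82e-07), again without overlap. Mcm10, which helps to start the helicase, had the largest, 4.58 ± 0.41, followed by Mcm5 (3.71 ± 0.27), Cdc6 (3.44 ± 0.36) and Cdt1 (3.41 ± 0.26). Gmnn, the inhibitor of Cdt1, rose less, by 1.16 ± 0.18. The 6 subunits of the Mcm helicase thus ran from 0.78 (Mcm2) and 1.08 (Mcm7) to 3.71 (Mcm5), although they are known to act as 1 complex.

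Nucleotide supply genes were higher in 4 of 4 (median 2.33). The pair of ribonucleotide reductase subunits moved by very different amounts. Rrm1, the large subunit, was at 63.4, 55.7, 52.3 and 55.5 CPM on RST day 3 and at 49.4, 47.5, 46.9 and 46.2 CPM in LST. The groups did not overlap, but the change was only 0.26 ± 0.08 on the log2 scale (edgeR adjusted p = 0.00624). Rrm2, the small subunit that is known to limit the enzyme, went from 1.33 ± 0.27 CPM in LST to 26.6 ± 9.3 CPM (SD, n = 4), and its log2 fold change was 4.32 ± 0.33. Tk1 was at 26.0, 19.5, 21.7 and 19.6 CPM and in LST at 13, 11.8, 11.8 and 9.72 CPM (0.90 ± 0.11, adjusted p = 1.7e-07), without overlap. Tyms, thymidylate synthase, rose by 3.76 ± 0.33.

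Genes of S phase entry control were higher in 4 of 5 (median 3.48). Cdk2, the kinase partner of cyclin E, was at 17.5, 15.9, 13.8 and 15.5 CPM on RST day 3 and at 4.95, 3.60, 4.13 and 3.79 CPM in LST. All 4 RST day 3 libraries were higher, by 1.93 ± 0.17 on the log2 scale (edgeR adjusted p = 1.92e-09). The other cyclin E, Ccne1, rose by 3.67 ± 0.34, where Ccne2 was at 10.9, 8.48, 8.93 and 7.32 CPM against 8.24, 8.85, 6.6 and 7.67 CPM, with overlapping groups. The transcription factors E2f1 and E2f8 rose by 3.48 ± 0.25 and 3.49 ± 0.35. Both genes of the replication checkpoint and repair rose. Brca1, a repair factor, was at 6.64, 5.71, 4.40 and 5.36 CPM against 0.518, 0.410, 0.426 and 0.409 CPM (3.63 ± 0.36, adjusted p = 1.33e-08), without overlap. Chek1, the checkpoint kinase, was at 4.18, 3.05, 3.80 and 3.51 CPM against 0.801, 0.502, 0.596 and 0.409 CPM, a rise of 2.64 ± 0.25.

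Mitotic entry genes were higher in 10 of 10, with a median log2 fold change of 4.62. Cdk1, the mitotic kinase, was at 30.8, 22.3, 17.6 and 18.1 CPM on RST day 3 and at 0.801, 0, 0.298 and 0.409 CPM in LST. Every RST day 3 library was far above LST, by 5.88 ± 0.46 on the log2 scale (edgeR adjusted p = 4.99e-10). Its cyclin partner Ccnb1 rose by 5.30 ± 0.48, the Polo kinase Plk1 by 4.82 ± 0.39, and Ccna2, the cyclin of S phase and G2, by 4.63 ± 0.35 (25.8, 21.3, 17.3 and 19.0 CPM against 1.22, 0.502, 0.809 and 0.819 CPM). Aurka, the Aurora kinase of spindle poles, stood apart from its class. It was at 17.6, 13, 11 and 15.7 CPM and in LST at 8.62, 10.1, 8.69 and 7.06 CPM, a change of 0.73 ± 0.14 (adjusted p = 0.000114) without overlap. The other Aurora kinase, Aurkb of the chromosomal passenger complex, rose by 4.96 ± 0.39.

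Kinetochore and spindle genes were higher in 13 of 13 (median 4.78), and the largest changes of all members were here. Ndc80, which binds kinetochores to microtubules, lies on chromosome 17 at 71496100 to 71526857 (minus strand, mm10). It was at 8.87, 7.93, 5.25 and 6.94 CPM on RST day 3 and at 0.0471, 0.0912, 0.128 and 0.0512 CPM in LST, where 7 counts were seen over the 4 libraries. The log2 fold change was 6.39 ± 0.45 (edgeR adjusted p = 2.04e-10), and the size of a change from so few counts is imprecise. Bub1, a spindle checkpoint kinase, followed at 6.02 ± 0.51, then Kif2c, a kinesin that takes microtubules apart, at 5.82 ± 0.44. Cenpa was at 29.9, 26.0, 19.9 and 23.3 CPM against 3.20, 2.69, 3.58 and 2.81 CPM (3.01 ± 0.21), and Tpx2, the activator of Aurka, at 26.6, 22, 18.5 and 20.7 CPM against 4.24, 6.75, 3.83 and 3.68 CPM (2.24 ± 0.25). Neither pair of groups overlapped.

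Genes of mitotic exit and cytokinesis were higher in 5 of 5 (median 3.01). Cdc20, which switches on the anaphase-promoting complex, rose by 5.14 ± 0.45, and the cytokinesis motor Kif23 by 4.21 ± 0.37. Ube2c was at 27.0, 18.6, 14 and 16.0 CPM against 3.63, 2.05, 1.49 and 2.25 CPM (3.01 ± 0.25). Prc1, which bundles the central spindle, was at 14.2, 13.9, 10.1 and 11.4 CPM against 1.98, 1.0, 1.70 and 1.69 CPM (2.96 ± 0.30). The exons of Ube2c overlap those of Tnnc2, a troponin gene of skeletal muscle, over 592 bases (22.8% of the exon length of Ube2c), and the strand setting of the counting is not given. Exons of 6 other members share 11.1% to 29.3% of their length with a neighbouring gene (Prc1 with Rccd1, E2f8 with Gm2788, Ccna2 with Exosc9, Cdc25c with Gm3550, Ccne2 with Ints8 and Kif20a with Cdc23), so counts of these 7 members are uncertain. The general marks of dividing cells rose too. Mki67, the Ki-67 protein, was at 52.4, 56.5, 48.9 and 57.1 CPM against 5.13, 1.96, 2.68 and 2.0 CPM (4.19 ± 0.40), without overlap. Top2a, the topoisomerase that untangles sister chromatids, was at 59.1, 55.5, 39.3 and 48.9 CPM against 2.54, 0.593, 1.66 and 1.28 CPM, a rise of 5.06 ± 0.43.

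**Figure D3:**
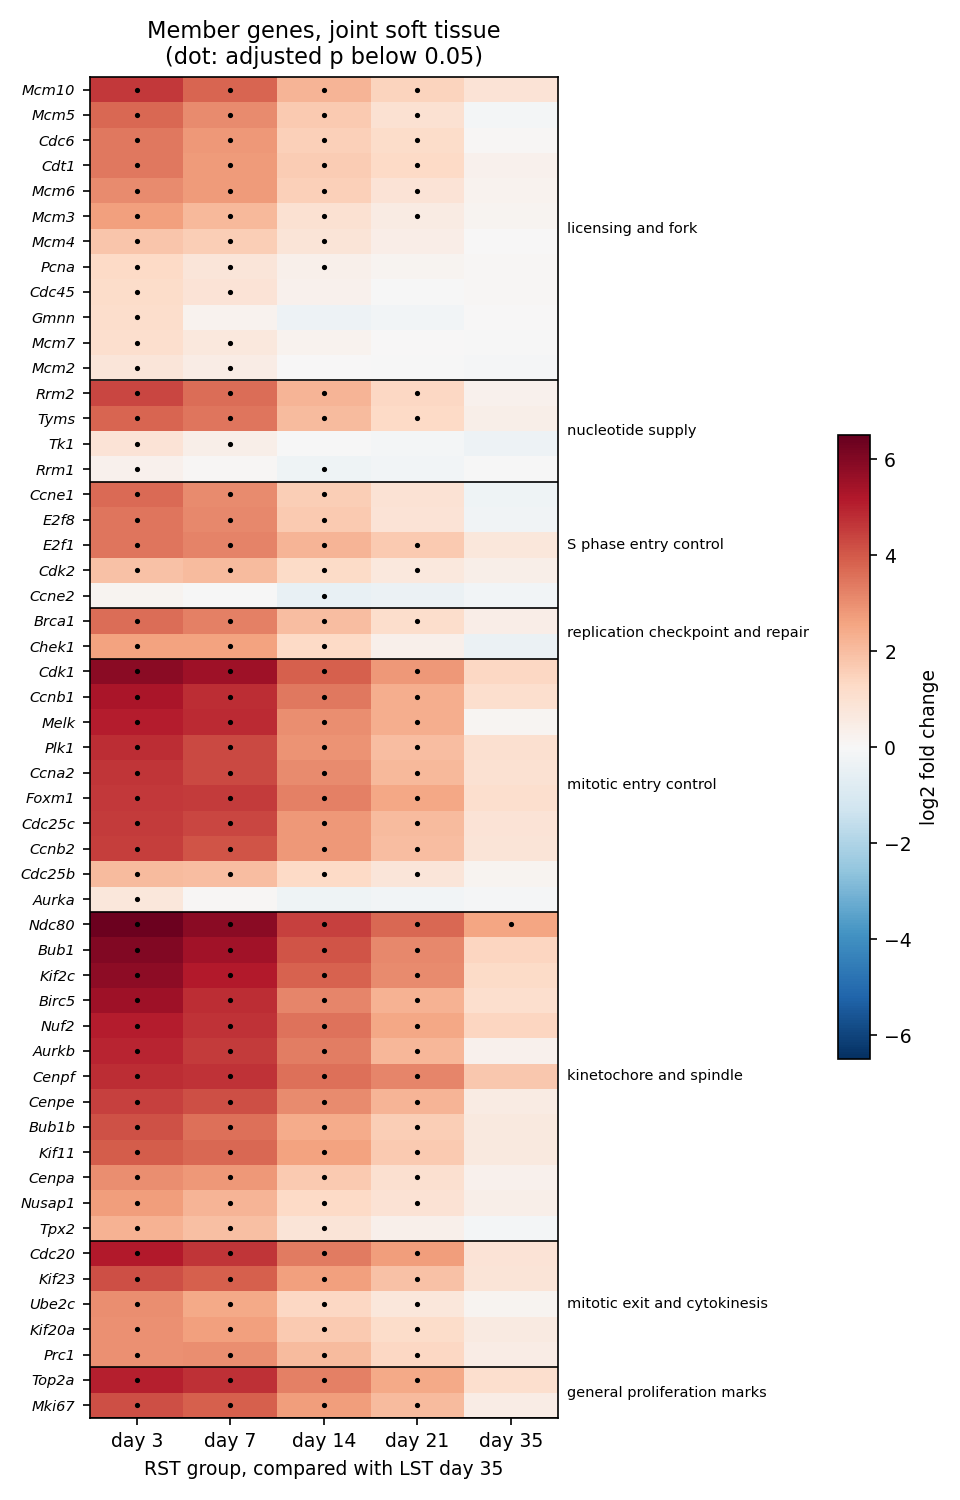
Log2 fold change against LST day 35 (colour scale) of the 53 members (rows, by role) on each RST day (columns), with a dot where edgeR's adjusted p is below 0.05. Colour is deepest in mitosis members on days 3 and 7, where Ndc80 reaches 6.39, and pale on every day in Rrm1 and Ccne2.

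Members already abundant in LST had small fold changes. In LST, the highest mean CPM per kilobase of exon belonged to Pcna (8.94), Rrm1 (4.31), Gmnn (3.93), Aurka (3.40) and Mcm7 (2.79), and each of these 5 had a log2 fold change of 1.29 or less on RST day 3. The lowest LST level per kilobase was that of Ndc80, 0.0122. On RST day 3 the order was Pcna (21.9), Rrm2 (9.59), Cdc20 (9.29), Gmnn (8.84) and Ccnb2 (8.42). A fold change is computed from the LST level, so the LST level and the fold are not independent measures.

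S phase and mitosis members differed in size of change. On RST day 3 the median log2 fold change against LST was 2.64 in the S phase set and 4.55 in the mitosis set, with 22 of 23 and 27 of 27 called higher. The mean level of the S phase set minus that of the mitosis set was 1.93 ± 0.22 in LST and 0.23 ± 0.07 on RST day 3 (log2 CPM, SD, n = 4). It was 0.21 ± 0.08 on day 7, 0.48 ± 0.23 on day 14, 0.84 ± 0.45 on day 21 and 1.31 ± 0.24 on day 35. Only the shift between groups can be read, since the sets hold genes of different lengths. The same difference from 25 other S phase and 39 other mitosis genes moved from 0.63 in LST to -0.60 on RST day 3 and back to 0.19 on day 35, so the shift had the same direction in other genes.

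By RST day 7, 49 members were higher than in LST and none lower, where 76.1% of all genes passed and 41% were higher. The median log2 fold change was 3.24. Ndc80 (5.85 ± 0.46), Cdk1 (5.50 ± 0.46) and Bub1 (5.47 ± 0.52) led, and the 4 without a call were Gmnn (0.25 ± 0.19), Rrm1 (0.05 ± 0.08), Aurka (0.05 ± 0.15) and Ccne2 (-0.02 ± 0.15). Between days 3 and 7, 13 members fell and none rose, where 41.2% of all genes passed and 22.5% were lower. The count of members that fell thus lay near the background. Of these 13, 11 were S phase members, 8 of them of licensing and the fork. Gmnn fell by 0.91 on the log2 scale (SE 0.18, edgeR adjusted p = 0.000394), Mcm10 by 0.78, Cdt1 and Rrm2 by 0.67 each, Mcm5 by 0.63, Tk1 by 0.51 and Pcna by 0.49. In the mitosis set Aurka (-0.68 ± 0.14) and Ube2c (-0.57 ± 0.22) fell. The medians of the sets were alike, -0.36 in S phase and -0.40 in mitosis, so the unequal counts show no larger fall of S phase genes. Without RST day 3 replicate 1 the count was 5 (5904 of all genes), and without RST day 7 replicate 2 or replicate 4 it was 8 (5778 and 6015 of all genes). It was 25 (5893 of all genes) when edgeR was fitted on these groups alone. Only Cdk2 (0.12 ± 0.15) and Prc1 (0.07 ± 0.25) had values above 0, and neither passed.

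The steepest fall came between days 7 and 14. In this interval 52 members fell, none rose, and the median was -1.18, where 38.9% of all genes passed and 18% were lower. The same number of members had every day 14 library below every day 7 library, as in 16.1% of all genes. Melk, a kinase of mitotic cells, fell most, by 1.82 (SE 0.32, edgeR adjusted p = 0.000223), followed by Birc5 (survivin of the passenger complex, -1.64 ± 0.35) and Cdk1 (-1.61 ± 0.33). Aurka did not pass (-0.31 ± 0.15, adjusted p = 0.0911), and the smallest falls with a call were those of Rrm1 (-0.35 ± 0.08) and Tk1 (-0.43 ± 0.11). The set medians were -1.10 in S phase and -1.20 in mitosis.

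On day 14, 45 members were still higher than in LST and 2 were lower, where 57.9% of all genes passed, 33.4% as higher and 24.5% as lower. The median was 2.06, with 1.30 in the S phase set and 2.93 in the mitosis set. The 2 lower members were Rrm1 and Ccne2. Rrm1 was at 37.3, 37.9, 40.3 and 39.1 CPM on RST day 14, all 4 below the lowest LST library, which is a difference of -0.30 ± 0.08 on the log2 scale (edgeR adjusted p = 0.00282). Ccne2 was at 5.03, 4.96, 5.41 and 6.70 CPM, overlapping LST, with -0.51 ± 0.15 (adjusted p = 0.00639). Over the 5 RST days Rrm1 ranged from 36.8 to 63.4 CPM per library and Ccne2 from 4.96 to 10.9 CPM. The mitosis median had been 4.55 on day 3. The largest changes on day 14 were those of Ndc80 (4.44 ± 0.50), Bub1 (4.11 ± 0.56) and Cdk1 (3.89 ± 0.47).

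**Figure D4:**
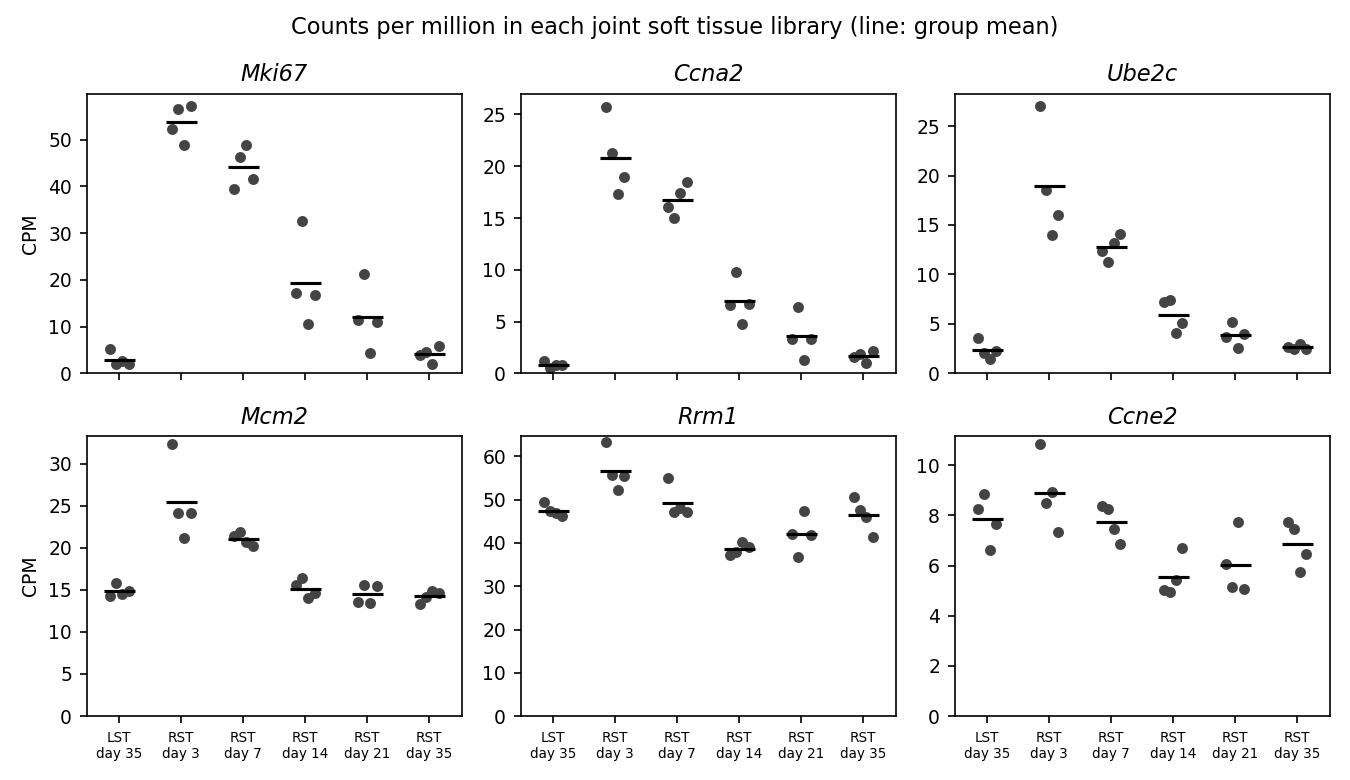
CPM (linear axes from 0) in each joint library (points) and group means (lines) of 6 members. Mki67 goes from 48.9 to 57.1 CPM on RST day 3 down to 2.10 to 5.95 CPM on day 35, while Rrm1 stays between 36.8 and 63.4 CPM in all RST libraries.

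Day 21 showed the largest spread. Mki67 was at 11.5, 21.3, 4.39 and 11.1 CPM and Top2a at 5.49, 16.1, 2.69 and 8.27 CPM, replicate 2 highest and replicate 3 lowest in both. Against LST, 39 members were higher and none lower (27.1% of all genes passed, 21.7% as higher), with 11 of 23 in the S phase set and 25 of 27 in the mitosis set, and a median of 1.31. Without replicate 2 the count was 27. Only 20 members had no overlap with LST, where 18.9% of all genes had none in this direction. Between days 14 and 21 the median was -0.67 and no member passed, where 0.737% of all genes passed. With edgeR 34 members had an unadjusted p below 0.05 and a value below 0, as had 16% of all genes. DESeq2 called 8 members and 1163 of all genes, where the main fit called 119 of all genes. Leaving out day 21 replicate 2 gave 38 lower members (4466 of all genes), and leaving out day 14 replicate 3 gave 14 (1322 of all genes). Calls over the whole table thus rose along with those of the members.

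By day 35 the S phase members overlapped LST in their mean level, and the mitosis members lay above it. The mean log2 CPM of the mitosis set was 0.07, 0.20, 0.0027 and 0.59 in the RST libraries and -0.09, -0.86, -0.40 and -0.73 in LST, without overlap. That of the S phase set was 1.55, 1.51, 1.47 and 1.55 against 1.63, 1.32, 1.37 and 1.33, with overlap. S phase minus mitosis did not overlap either, at 0.97 to 1.47 in RST and 1.72 to 2.18 in LST. By role, mitotic exit genes overlapped (RST replicate 1 at 0.42, LST replicate 1 at 0.43), and mitotic entry and kinetochore genes did not. The 39 other mitosis genes overlapped, at 0.22, 0.63, 0.24 and 0.80 in RST and 0.31, -0.36, 0.0040 and -0.22 in LST. Their S phase minus mitosis level from other genes did not, at -0.012 to 0.37 in RST and 0.42 to 0.84 in LST. These set levels were not tested. Of single members, 11 of 53 had a log2 fold change above 1, as had 5.54% of all genes, and 7 had no overlap with LST, as in 10.1% of all genes. Against LST, 1 member was higher and none lower, where 2.97% of all genes passed and 2.92% were higher, so the member count lay near the background. That member was Ndc80, at 0.759, 0.323, 0.430 and 0.462 CPM against 0.0471, 0.0912, 0.128 and 0.0512 CPM (2.54 ± 0.62, edgeR adjusted p = 0.025), without overlap. It missed the threshold without RST day 35 replicate 1 or 4 and without LST replicate 1, 2 or 4. Next were Cenpf, a kinetochore protein (1.77 ± 0.53, adjusted p = 0.0732), and Nuf2, the partner of Ndc80 (1.40 ± 0.52, adjusted p = 0.191). The lowest values were Chek1 (-0.40 ± 0.31), Tk1 (-0.31 ± 0.11) and Ccne1 (-0.27 ± 0.45). The member median was 0.37, with 0.06 in the S phase set and 0.84 in the mitosis set, and 42 of 53 members had values above 0. Mki67 was at 3.94, 4.53, 2.10 and 5.95 CPM, overlapping LST (0.48 ± 0.43, adjusted p = 0.803).

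From day 21 to day 35, 11 members fell and none rose, where 3.97% of all genes passed and 3.89% were lower. They were Melk (-2.23 ± 0.52), Aurkb (-1.93 ± 0.44), Cdc20 (-1.82 ± 0.44), Kif2c (-1.82 ± 0.44), Cenpe, Mki67, Foxm1, Cenpf, Mcm5, Cdt1 and E2f1. The median was -0.98. Without RST day 21 replicate 2 none passed (35 of all genes), nor without RST day 35 replicate 1, 2 or 3 (67, 52 and 41 of all genes). Without RST day 21 replicates 1, 3 and 4 in turn 20, 34 and 3 passed (1350, 1884 and 191 of all genes). Without RST day 35 replicate 4 it was 17 (755 of all genes), so the count rests on single libraries. It was 23 with no filter on low counts (1139 of all genes), 20 with DESeq2 (1144) and 0 with edgeR on these groups alone (0).

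Single members followed this course at different heights. Ccna2 was at 16.1, 15, 17.4 and 18.5 CPM on RST day 7, at 6.58, 9.83, 4.79 and 6.66 CPM on day 14, at 3.34, 6.37, 1.26 and 3.37 CPM on day 21 and at 1.57, 1.89, 1.0 and 2.16 CPM on day 35. The ranges of days 3 and 7 overlapped, and replicate 2 was the highest on days 14 and 21. Cdk2 was at 15.4, 16.6, 17.4 and 19.0 CPM on day 7, at 9.14, 13.2, 8.02 and 8.01 CPM on day 14 and at 5.12, 5.50, 5.02 and 5.59 CPM on day 35, where every library was still above the highest of LST (4.95 CPM) without a call (0.37 ± 0.17, edgeR adjusted p = 0.383). Pcna was at 33.1, 36.2, 41.6 and 38.6 CPM on day 7 and at 26.1, 30.1, 24.6 and 27.7 CPM on day 14, all above LST, and its day 35 libraries (20.2 to 25.2 CPM) overlapped LST. Aurka had lost its difference by day 7, at 9.58, 9.03, 8.54 and 8.61 CPM, within the range of LST.

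Across all joint groups, 51 of 53 members were highest on RST day 3, and the exceptions were Cdk2 and Prc1, highest on day 7. All 53 passed the edgeR test for any change over the 5 RST days, where 79.6% of all genes passed. LST was the lowest group for 25 of 27 mitosis members but for 12 of 23 S phase members. Another 7 S phase members were lowest on RST day 35, 3 on RST day 14 and 1 on RST day 21. On day 14 a median of 33.6% of the day 3 level was left (mean CPM, 53 members), from 18.9% to 68.1%.

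Markers of other cell types moved along the same days, and their part in these results was not tested. On RST day 3 against LST 38.6% of all genes were higher and 30.1% lower. The 3 of 7 called higher in regenerating muscle lay near the first share. Summed macrophage and monocyte markers (8 of 8 higher on RST day 3) ran from 1353 to 2166 CPM on RST day 3 and from 67.1 to 97.9 CPM in LST. In between they were at 1077 to 1502 CPM (day 7), 631 to 1182 CPM (day 14), 275 to 861 CPM (day 21) and 207 to 361 CPM (day 35). Fibroblast markers (5 of 7 higher) peaked later, with 5616 to 6873 CPM on day 3, then 17806 to 24013 CPM on day 7, and 908 to 1028 CPM in LST. Chondrocyte markers (4 of 6 higher) were at 58.7 to 70.7 CPM on day 3, 410 to 491 on day 7 and 17.4 to 27.1 in LST. Markers of regenerating muscle (3 of 7 higher) were at 112 to 285 CPM on day 3, 287 to 474 on day 7 and 58.6 to 68.5 in LST. Markers of mature muscle were lower in 8 of 8, at 63758 to 86026 CPM on day 3 against 162142 to 176190 CPM. Markers of bone marrow neutrophil precursors, which also divide, were at 0.981 to 31.0 CPM on day 3 and 1.69 to 19.97 CPM in LST, with none of 5 tested called, and Elane, Ctsg and Ms4a3 had median counts below 10. No marker of these lists was at 0 in every joint library.

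Other genes of the pathway moved with the members on RST day 3. Over all genes 38.6% were higher and 30.1% lower in this comparison. Of 25 other S phase genes 23 were higher and none lower (median 2.11), led by edgeR adjusted p by the helicase Hells (3.35 ± 0.21, adjusted p = 4.7e-11). Of 39 other mitosis genes 38 were higher and 1 was lower (median 3.96), the lower one being Pttg1, the securin (-0.88). Among 12 genes of cyclin D and G1 control 10 were higher and 2 lower (Mycn and E2f3), with Cdk4 at 69.7 ± 11 against 24.1 ± 1.2 CPM (SD, n = 4, 1.53 ± 0.13) and Ccnd1 at 22.4 ± 5.2 against 5.89 ± 0.76 CPM. Summed CPM of 20 cell cycle inhibitors and quiescence genes was lower, at 1195 to 1338 on RST day 3 against 1692 to 1902 in LST. Among these 20 genes 14 were higher and 4 lower. The lower ones were Rbl2, a pocket protein of resting cells (-0.93), Ccng1 (-1.12), Cdkn1b, the inhibitor p27 (-0.34), and Ccng2 (-0.31). On day 35, where 2.97% of all genes passed, none of the other S phase genes and 2 of the other mitosis genes passed, Gtse1 (1.95 ± 0.46, adjusted p = 0.0185) and Ckap2 (2.12 ± 0.54, adjusted p = 0.0294). In the other lists Cdk6 (1.5 ± 0.32), Ccnd2 (0.87 ± 0.21), Gas1 (0.68 ± 0.16) and the inhibitor gene Cdkn2a (0.755 ± 0.44 against 0.0588 ± 0.059 CPM, 3.56 ± 0.90, adjusted p = 0.0292) were higher than in LST.

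Changes were also set beside the promoter letters within each set. On RST day 3 the 14 mitosis members with CHR had a median log2 fold change of 4.35 and the 8 without it 5.11. The 7 S phase members with E2F stood at 3.08 and the 13 without it at 3.48. From day 7 to day 14 these medians were -1.20 and -1.25 in the mitosis set and -1.12 and -1.25 in the S phase set. In Implant against NoImplant nodes on day 7 they were 1.07 and 1.10 in the mitosis set and 0.46 and 0.72 in the S phase set. Within each set the median change was thus smaller in members with the motif, at times only slightly, with ranges that overlapped. The same genes entered all 3 comparisons. Over all 44 members, those with CHR had the larger median on RST day 3 (4.19 and 3.48) and in the nodes (1.06 and 0.72). From day 7 to day 14 it was -1.18 with CHR and -1.21 without, and with E2F the change was smaller in all 3. On RST day 3 the 9 members with none of the 3 motifs had a median of 3.67. Of the printed windows, that of Tk1 without a match went with a change of 0.90, that of Mcm7 with E2F with 1.08, and those of Cenpa and Ube2c with CHR with 3.01 each. These are counts of few genes, given as a description with no test.

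In lymph nodes all 53 members were expressed in every group, and all 53 had their highest group mean in Implant nodes on day 7. The mean log2 CPM of all members was 4.73, 5.07 and 5.09 in the 3 Implant day 7 libraries, 4.18, 4.23 and 3.76 in NoImplant day 7, and 3.92, 3.79 and 5.01 in ContraImplant day 7. The Implant libraries lay above all NoImplant libraries, and ContraImplant replicate 3 lay among the Implant libraries. On day 14 the Implant libraries were at 4.10, 4.2 and 4.37, and NoImplant at 4.68, 4.22 and 3.73, overlapping.

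**Figure D5:**
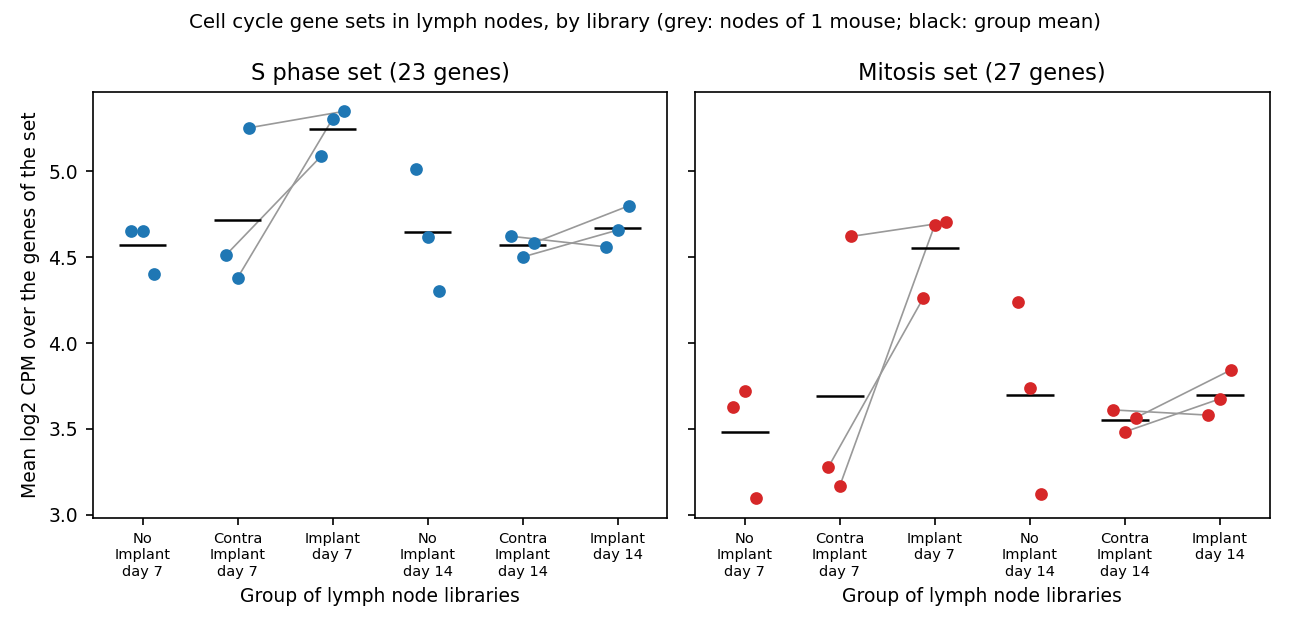
Mean log2 CPM of S phase members (left) and mitosis members (right) in each node library (points), with group means (black lines) and the nodes of 1 mouse joined in grey; the axis does not start at 0. Implant day 7 is the highest group in both sets, and 1 ContraImplant day 7 library lies beside it.

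Against NoImplant on day 7, only Cdk2 passed, where 0.0437% of all genes passed and 0.0382% were higher. The direction was shared by all members, with 53 of 53 log2 fold changes above 0 and a median of 1.0, beside -0.00 over all genes. In 52 members every Implant library lay above every NoImplant library, as in 17% of all genes, and only Ndc80 overlapped. With an unadjusted edgeR p below 0.05 there were 51 members, beside 9.76% of all genes in this direction. Members of a library rise and fall together, so these 53 values are far from 53 separate observations. DESeq2 called 21 members (711 of all genes), and edgeR called 43 (1105 of all genes) when fitted on these groups alone. It called 16 (155 of all genes) without ContraImplant day 7 replicate 3, a library outside the comparison whose removal was chosen after seeing the data. Cdk2 missed the threshold when any of the 6 libraries compared was left out.

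Cdk2 was at 81.4, 79.1 and 78.7 CPM in Implant and at 55.2, 57.1 and 56.5 CPM in NoImplant nodes on day 7. The libraries of each group were close together and the groups far apart, by 0.50 ± 0.08 on the log2 scale (edgeR adjusted p = 0.0321). Larger changes came with wider spread. Cdc25c, the phosphatase that activates Cdk1, had the largest (1.76 ± 0.49, adjusted p = 0.101), followed by Ccnb1 (1.55 ± 0.44, adjusted p = 0.103) and Kif11, the spindle motor (1.40 ± 0.41, adjusted p = 0.113). The smallest were Cdt1 (0.25 ± 0.10), Pcna (0.25 ± 0.11) and Cdc25b (0.29 ± 0.11). The median was 0.58 in the S phase set and 1.09 in the mitosis set. By role it was 0.46 in licensing and fork genes, 0.82 in nucleotide supply, 0.67 in S phase entry, 1.16 in mitotic entry, 1.05 in kinetochore and spindle genes and 1.22 in mitotic exit.

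Abundant members of each role are given by library, Implant against NoImplant nodes on day 7. Of the helicase, Mcm6 was at 125, 148 and 147 against 110, 111 and 94.2 CPM, and Mcm3 at 117, 138 and 141 against 98.7, 98.1 and 91.0 CPM. Of ribonucleotide reductase, Rrm1 was at 92.5, 111 and 112 against 72.4, 75.7 and 66.3 CPM, and Rrm2 at 43.2, 61.8 and 61.8 against 27.9, 27.1 and 18.7 CPM (1.18 ± 0.38, edgeR adjusted p = 0.135). In these 4 the groups did not overlap, and Implant replicate 1 was the lowest of its group. E2f1 was at 18.0, 21.4 and 20.4 against 16.5, 15.2 and 14.2 CPM, Brca1 at 17.8, 19.3 and 20.02 against 12.8, 13.4 and 12.1 CPM, and Chek1 at 7.00, 7.05 and 7.38 against 4.21, 3.89 and 2.33 CPM. Again no groups overlapped, and the Implant libraries of Chek1 were close together.

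Among mitosis members, the phosphatase Cdc25b was at 85.9, 87.6 and 94.4 against 79.3, 75.0 and 64.7 CPM, and Ccna2 of both phases at 30.9, 46.9 and 44.8 against 18.3, 21.3 and 11.5 CPM (1.26 ± 0.43, edgeR adjusted p = 0.149). Cenpa was at 56.1, 64.9 and 61.4 against 43.0, 38.3 and 35.8 CPM (0.64 ± 0.17, adjusted p = 0.0964), and the checkpoint kinase Bub1b at 40.3, 45.6 and 48.3 against 27.1, 27.1 and 19.3 CPM. Kif23 was at 27.2, 33.7 and 33.6 against 24.2, 25.2 and 17.7 CPM, and Cdc20 at 27.2, 39.1 and 40.7 against 17.5, 19.6 and 13.2 CPM. NoImplant replicate 3 was the lowest library in all 6. Mki67 was at 110, 140 and 144 against 67.7, 69.9 and 35.2 CPM (1.19 ± 0.42, adjusted p = 0.163), and Top2a at 115, 154 and 157 against 78.5, 80.7 and 45.3 CPM (1.06 ± 0.36, adjusted p = 0.151). Both were without overlap, and of the members in these 2 paragraphs none passed.

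Against ContraImplant on day 7, Cdk2 passed again, alone, where 0.715% of all genes passed and 0.175% were higher. It was at 67.7, 53.8 and 62.4 CPM in ContraImplant nodes, below all Implant libraries (0.38 ± 0.08, edgeR adjusted p = 0.0399). With the mouse as a block the value was 0.37 and the edgeR adjusted p 0.0768, and no member passed, where 19 of all genes did. With this block 51 members had an unadjusted edgeR p below 0.05. Without it 25 members had one and were higher, beside 8.69% of all genes. All 53 members had log2 fold changes above 0, with a median of 0.64 and 0.42 in the S phase and 0.74 in the mitosis set, but 6 were free of overlap, beside 10.6% of all genes. Within mouse 7 all 53 members were higher on the Implant side, by a mean of 0.81 log2 CPM, and within mouse 8 all 53, by 1.27. Within mouse 9, whose other node is the library that stood apart, 39 were higher, by a mean of 0.08. Without that library the median was 1.198 and 45 members passed (600 of all genes). Without ContraImplant replicate 2, or without any 1 of the Implant libraries, no member passed, nor any gene. Mki67 shows the pattern, at 51.0, 39.7 and 148 CPM in ContraImplant nodes of mice 7, 8 and 9. ContraImplant differed from NoImplant nodes in no member on day 7, where 0% of all genes passed. The median was 0.28 and turned to -0.20 without ContraImplant day 7 replicate 3, so no direction can be read.

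On day 14 Cdk2 was the only member to pass against NoImplant, at 63.5, 70.9 and 64.8 CPM against 53.6, 54.3 and 45.9 CPM (0.37 ± 0.08, edgeR adjusted p = 0.0245), where 5.97% of all genes passed and 3.44% were higher. The member count thus did not exceed the background. For Cdk2 the groups did not overlap, and the call was lost without replicate 2 or 3 of either group and with edgeR on these groups alone. The member median was -0.04, with 22 above and 31 below 0. It turned to 0.23 without NoImplant day 14 replicate 1 and to 0.03 without Implant day 14 replicate 1, so no direction can be read. Against ContraImplant on day 14 no member passed, as no gene did, with a median of 0.13. From day 7 to day 14 in Implant nodes all 53 members had values below 0, with a median of -0.83, and 52 without overlap, as in 9.68% of all genes. None passed, where 0% of all genes passed, and 44 had an unadjusted p below 0.05 (3.96% of all genes, lower). When edgeR was fitted on these groups alone 31 members passed (178 of all genes). The largest were Cdc25c (-1.44 ± 0.48), Ccnb1 (-1.11 ± 0.43) and Ube2c (-1.09 ± 0.38). In ContraImplant and NoImplant nodes no member passed between the days (0% and 0.0164% of all genes), with medians of -0.25 and 0.20. The first turned to 0.28 without ContraImplant day 7 replicate 3, so its direction rests on that library. ContraImplant and NoImplant nodes on day 14 differed in no member either (0% of all genes), with a median of -0.18. Within mice 25, 26 and 27, 19, 50 and 50 members were higher on the Implant side on day 14, by means of -0.05, 0.18 and 0.26 log2 CPM. The day by Implant interaction passed in no member against NoImplant or ContraImplant nodes, as in 0% of all genes. An unadjusted edgeR p below 0.05 with a value below 0 was found in 36 members (2.73% of all genes) against NoImplant and in 2 (0.699%) against ContraImplant nodes. Against ContraImplant the member median was -0.49, and without ContraImplant day 7 replicate 3 it was -1.11, with an unadjusted p below 0.05 in 51 members and a pass in none.

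The S phase minus mitosis level was 1.09 ± 0.19 in NoImplant and 0.70 ± 0.11 in Implant nodes on day 7 (log2 CPM, SD, n = 3). It was 0.97 ± 0.02 in Implant and 0.94 ± 0.21 in NoImplant nodes on day 14. In ContraImplant nodes on day 7 it was 1.24, 1.21 and 0.63, lowest in the library that stood apart. From NoImplant to Implant nodes on day 7 it moved in the direction seen from LST to RST day 3. Summed germinal centre B cell markers were at 138 to 161 CPM in Implant, 122 to 268 in ContraImplant and 134 to 178 in NoImplant nodes on day 7. B cell markers were at 3813 to 4111, 2699 to 3856 and 3246 to 3651 CPM, and T cell markers at 1205 to 1501, 1294 to 1431 and 1445 to 1646 CPM. No marker of these lists passed between Implant and NoImplant on day 7, and their part in the member values was not tested.

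Of the other pathway genes in nodes, none passed between Implant and NoImplant on day 7, where 0.0437% of all genes passed. Values above 0 were found in 24 of 25 other S phase genes (median 0.55), 36 of 39 other mitosis genes (1.05), 9 of 12 genes of cyclin D and G1 control (0.32) and 11 of 20 inhibitors and quiescence genes (0.06). The smallest adjusted p were those of Espl1, the separase (0.90, edgeR adjusted p = 0.0632), and Cdk6 (0.50, adjusted p = 0.0632). On day 14 the inhibitor Cdkn1b was higher in Implant nodes, at 215 ± 11 against 183 ± 5.2 CPM (SD, n = 3, 0.23 ± 0.06, adjusted p = 0.048).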

How the data were processed

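RNA sequencing of 24 joint soft tissue and 18 lymph node libraries was used. Per the labels' protocols, tissues were flash frozen and libraries made from total RNA with the NEBNext Ultra II kit. Per the submitters' processing notes, reads went through fastp and STAR on mm10. The authors deposited 1 table per tissue of raw read counts by gene, with no normalization. No source used here gives the counting program, its strand setting or tool versions. The joint table lists no gene at 0 everywhere, that of the nodes 17552. Symbols, positions and exon overlaps came from GENCODE M21 (36591 of 36604 and 54723 of 54752 identifiers matched). Promoter windows came from RefSeq (GRCm38.p6).

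Genes were tested in edgeR 4.0.16 (R 4.3.3) after filterByExpr (minimum count 10; 16149 joint, 18312 node) and TMM scaling, by quasi-likelihood F tests from a fit of all 6 groups of a tissue, with Benjamini-Hochberg adjustment over all genes of a comparison and a threshold of 0.05. SEs were obtained by dividing the size of the log2 fold change by the root of its F value. Set levels are means of log2 CPM with a prior count of 2. No 2 replicates agreed within sampling noise (lowest chi-square per degree of freedom 8.27, genes with summed counts of at least 20). Mouse numbers in the labels pair Implant with ContraImplant nodes (correlation of deviations 0.106 to 0.402). On simulated counts at log2 fold changes of 1 and 2, 76% and 99% were recovered for RST day 3 against LST (15783 genes), and 69.1% and 77.8% for Implant against NoImplant on day 7 (18093 genes). Each gene was drawn independently there, whereas members of a library rise and fall together, so these shares do not carry over to the members. In the node data 26 members exceeded 1 in that comparison, and only Cdk2, at 0.50, passed.

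The members and all lists were chosen with earlier results of these data known. All members could be named. By rule, library values are given for the 2 members with the highest CPM in a role class, with the 3 largest and 3 smallest changes of a comparison and every member where 5 or fewer pass. Library values of Cdk1 and Ndc80, and further members in the text, were chosen after their values were seen. Alternatives were DESeq2 1.42.0, no filter, a fit on the groups compared, replicate or mouse blocks, other genes of each phase and leaving out each library.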

Additional observations from a re-analysis of the deposited data

Results flagged for a closer look

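Among 120 groups of 4 joint libraries (group levels of the sets and of the members given by library), 5 had a highest library farther from the rest than Dixon's 95% limit for 4 samples, and chance flags about 1 group in 20. In LST, the mean log2 CPM of the S phase members was highest in replicate 1, at 1.63. In LST, Brca1 was highest in the same replicate, at 0.518 CPM. On RST day 7 the S phase minus mitosis level was highest in replicate 4, at 0.32, and Rrm1 was highest in replicate 1, at 54.96 CPM. Pcna on RST day 21 was highest in replicate 2, at 26.2 CPM, which is also the library with the most fibroblast and macrophage marker RNA of that day. No difference between days of Implant against NoImplant or ContraImplant nodes passed its interaction test.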

How the results depend on the processing

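Counts of members called against LST on RST days 3, 7, 14 and 21, and the fall from day 7 to day 14, stayed within 1.5 times under all alternatives run. The others moved, and where no reason is given the cause was not tested. With no low count filter, 2 members passed on RST day 35 against LST, 10 between days 14 and 21, 23 between days 21 and 35 and 2 in Implant against NoImplant nodes on day 7. Over all genes 751, 570, 1139 and 55 passed. With DESeq2 these member counts were 2, 8, 20 and 21, and 6 passed in Implant against ContraImplant nodes on day 7. Over all genes DESeq2 called 767, 1163, 1144, 711 and 1038. Fitting the groups compared alone gave 25 from RST day 3 to day 7, 0 from day 21 to day 35, 43 in Implant against NoImplant and 0 against ContraImplant nodes on day 7, 0 against NoImplant on day 14, and 31 from day 7 to day 14 in Implant nodes. In the same order, these fits called 5893, 0, 1105, 0, 620 and 178 of all genes. A replicate block gave 2 on RST day 35 against LST (557 of all genes) and 1 between days 14 and 21 (372 of all genes). Same-numbered joint samples had correlations of deviations from -0.366 to 0.678 over all pairs of groups, from 0.0924 to 0.678 between days 14 and 21 and from 0.0829 to 0.191 between RST and LST on day 35. In each of these last 2 comparisons 3 of 4 samples correlated best with their own number, a hint from the data and not the design. In no joint comparison did all 4 correlations exceed 0.1, so the numbers were not taken to pair samples. With the mouse as a block 0 members (19 of all genes) passed in Implant against ContraImplant nodes on day 7, and the block changed no other node call. Leaving out 1 library gave 5 to 15 members from RST day 3 to day 7, 0 to 38 from day 14 to day 21, 0 to 34 from day 21 to day 35, 0 to 1 on day 35 against LST, 0 to 45 in Implant against ContraImplant nodes on day 7 and 0 to 1 against NoImplant on day 14. Against NoImplant on day 7 it gave 0 whichever of the 6 libraries was left out, and 16 without ContraImplant day 7 replicate 3. The median of Implant against NoImplant on day 14 ran from -0.29 to 0.23, and was 0.03 without Implant day 14 replicate 1. From other genes of each phase, the S phase minus mitosis level was -0.60, -0.58, -0.42, -0.23 and 0.19 on RST days 3, 7, 14, 21 and 35 and 0.63 in LST. In nodes it was 0.30 and 0.12 in NoImplant, 0.21 and 0.17 in ContraImplant and -0.042 and 0.16 in Implant nodes on days 7 and 14. Of single members, Rrm1 on RST day 3 missed the threshold without the filter (0.23, adjusted p = 0.0575), Cdc20 from day 21 to day 35 in the groups alone (-1.81, adjusted p = 0.198), and Cdk2 in the groups alone against ContraImplant on day 7 (0.37, adjusted p = 0.303) and NoImplant on day 14 (0.37, adjusted p = 0.0549).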
